A study of Mus musculus with 12 samples.

Results

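The genes described here encode the MCM replicative helicase and the proteins that license origins of DNA replication. They were chosen by name: Mcm2, Mcm3, Mcm4, Mcm5, Mcm6, Mcm7, Mcm10, Cdt1, Gmnn and Cdc6, 10 of the 19938 gene symbols that had a probe set of their own on the array. Each of the 10 had 1 such probe set, and all 10 passed the filter on dim genes in both comparisons. Expression was measured on 12 Affymetrix arrays, 3 for each of 4 groups of cells sorted from mouse dorsal skin.

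Clock-positive bulge cells were Venus-bright cells, and clock-negative bulge cells Venus-dim cells, both sorted as alpha6bright/CD34+ cells of the hair follicle bulge. They came from Per1-Venus reporter mice aged 18 to 19 days, in which Venus fluorescence reports the clock gene Per1, with about 20 mice pooled per sample. The population label of the clock-negative samples also carries the Venushigh gate, so the titles and the study design decided the grouping. Bmal1 KO samples were basal interfollicular epidermis (IFE) cells of mice lacking Bmal1, the core clock activator, in their epidermis, and wild-type samples were the same cells of wild-type mice. Both came from mice aged 1 year, with 5 mice per sample, and the driver of the knockout is not given in the sources used here. Nothing was given to the mice before the cells were sorted.

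Replication licensing is the loading of the MCM helicase onto origins before S phase. The origin recognition complex, Cdc6 and Cdt1 place a ring of 6 MCM subunits (Mcm2 to Mcm7) on DNA as an inactive double hexamer, and geminin, the product of Gmnn, binds Cdt1 and blocks further loading once S phase has begun. Mcm10 acts later, when the helicase is activated. In skin, these genes are widely used to mark cells that are able to cycle, and their transcription is driven by E2F factors at the passage into S phase.

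The promoters of the members were read because E2F control is the best known link between these genes. RefSeq promoter windows (build GRCm38.p6), from 250 bases before to 50 bases after a transcription start, were found for 8 of the 10 members, in 9 windows since Mcm7 had 2 starts; Mcm4 and Gmnn had none in the table used. The E2F words TTCCCGC and TTGGCGC, searched on both strands with overlapping matches merged, occurred in windows of 6 members, Mcm3, Mcm5, Mcm6, Mcm7, Cdt1 and Cdc6, against 6.81% of all 32851 windows of the same length. The CHR word TTTGAA, a cell-cycle element of mitotic promoters, occurred in 1 member, Mcm2, against 17.9% of all windows. The E-box CACGTG, the word that BMAL1 and CLOCK bind, occurred in none of the 8, against 7.15% of all windows. A match is a run of letters and not a shown binding site, and a missing match says only that these letters are not in the window.

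The 250 bases before the start are printed 5′ to 3′ on the gene's strand for 4 of the members that passed the test in the bulge under at least 1 scaling. They show the upstream bases of Mcm5, Mcm6 and Mcm7, which hold E2F words (in capitals), beside those of Mcm10, whose window held none of the 3 motifs. They lie at chr8:75109259-75109508 (plus strand, Mcm5), chr1:128359706-128359955 (minus strand, Mcm6), chr5:138171884-138172133 (minus strand, first start of Mcm7) and chr2:5012792-5013041 (minus strand, Mcm10).
Mcm5: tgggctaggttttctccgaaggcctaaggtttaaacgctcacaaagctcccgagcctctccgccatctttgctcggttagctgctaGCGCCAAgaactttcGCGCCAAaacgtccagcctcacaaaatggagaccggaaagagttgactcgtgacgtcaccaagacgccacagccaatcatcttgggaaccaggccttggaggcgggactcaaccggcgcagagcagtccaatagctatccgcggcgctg
Mcm6: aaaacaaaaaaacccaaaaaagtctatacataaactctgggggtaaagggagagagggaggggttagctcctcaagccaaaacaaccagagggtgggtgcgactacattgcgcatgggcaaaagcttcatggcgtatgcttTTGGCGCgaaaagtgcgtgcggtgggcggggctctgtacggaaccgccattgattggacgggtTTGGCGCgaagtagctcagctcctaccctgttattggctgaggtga
Mcm7 start 1: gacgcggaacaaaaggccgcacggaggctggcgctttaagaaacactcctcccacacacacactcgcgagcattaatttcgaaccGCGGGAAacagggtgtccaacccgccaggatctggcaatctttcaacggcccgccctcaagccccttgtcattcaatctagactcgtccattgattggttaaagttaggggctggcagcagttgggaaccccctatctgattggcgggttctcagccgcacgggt
Mcm10: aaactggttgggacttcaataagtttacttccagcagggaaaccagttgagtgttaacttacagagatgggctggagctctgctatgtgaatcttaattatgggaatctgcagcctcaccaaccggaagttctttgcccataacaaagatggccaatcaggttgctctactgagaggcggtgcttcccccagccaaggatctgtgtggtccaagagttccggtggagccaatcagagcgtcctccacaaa
Mcm2, which also passed the test after cyclic loess, is not printed, and its window held no E2F word. In the Mcm5 promoter the E2F words began 164 and 149 bases before the start. In that of Mcm6 they began 109 and 46 bases before the start, and in that of Mcm7 the upstream word began 165 bases before the first start, with another at position 21, counting the start as position 1.

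The values are log2 intensities, so a difference of 1 is a 2-fold difference. Levels of different probe sets were compared only where this is stated. The array medians were 6.82 to 7.01 in the bulge set and 7.75 to 7.80 in the IFE set, and no pair of arrays held identical values. The bulge and IFE values covered different probe sets (34760 and 28853, with 28101 in common), so levels were compared within a set only. Cd34, used to sort the bulge cells, averaged 10.97 ± 0.016 in clock-positive and 9.52 ± 0.076 in clock-negative cells (SD, n = 3 each). Krt5, a basal keratin, averaged 13.62 ± 0.044 in Bmal1 KO and 13.59 ± 0.058 in wild-type IFE cells. Krt5 was also among the brightest genes of the bulge arrays (percentile 99.8). Krt10, a marker of differentiated epidermis, was among the brightest of the IFE arrays (percentile 99.95), so these values do not check purity. The probe set of Arntl, the gene encoding BMAL1, read 9.55 to 9.85 in Bmal1 KO and 9.27 to 9.47 in wild-type cells (change 0.30, limma adjusted p = 0.53), and whether it covers the deleted part is not given, so it does not check the labels. Nr1d1, a gene that BMAL1 activates, read 8.39 to 8.63 in Bmal1 KO cells, against 12.28 to 12.60 in wild-type cells (limma adjusted p = 1.08e-05).

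The bulge comparison asked how the licensing genes differ between follicle stem cells with bright and with dim Per1 reporter. As deposited, the helicase subunits Mcm4 and Mcm7 and the inhibitor Gmnn were higher in clock-positive cells, Mcm10 was lower, and the other 6 genes did not pass the test. After cyclic loess, a scaling that removes intensity-dependent shifts between arrays, the calls were others: Mcm2, Mcm5, Mcm6 and Mcm10 were lower in clock-positive cells and no member was higher. All of these changes were small, between 1.15-fold and 1.21-fold, and Mcm10 was the only member called under both scalings.

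The count as deposited was 3 members higher and 1 lower of 10, beside 45.2% of all 13956 genes tested that were higher and 18.3% that were lower (limma, Benjamini-Hochberg adjusted p under 0.05). The members' median log2 change was 0.07, and that of all genes was 0.15. After cyclic loess 0 of 10 were higher and 4 were lower, beside 25.3% of all genes higher and 15.8% lower, with a median of -0.06 for the members and 0.04 for all genes. Without adjustment, 5 of the 10 had p under 0.05 after cyclic loess, beside 50.7% of all genes. Under quantile normalization, too, 0 members were higher and 4 were lower, beside 29.5% of all genes higher and 12.2% lower. Under median centring 5 were higher and 0 lower, beside 64% and 9.71% of all genes, and in 1 fit over all 12 arrays no member was called, beside 38% of all genes. For a change in either direction, a different share of cycling cells and a different amount of RNA per cell cannot be told apart in these bulk samples.

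Among the ring subunits, Mcm7 read 9.17, 9.24 and 9.30 in clock-positive cells, against 9.03, 8.96 and 9.03 in clock-negative cells. All 3 clock-positive arrays lay above all 3 clock-negative arrays, as they did for 3 members in all and for 50.1% of all genes. The change was 0.23 ± 0.064 (SE), or 1.17-fold, with a limma adjusted p of 0.00998, the lowest among the members.

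Mcm4 read 8.38, 8.30 and 8.38 in clock-positive cells, against 8.25, 8.08 and 8.13 in clock-negative cells. Its groups did not overlap either, and the change was 0.20 ± 0.067 (SE), or 1.15-fold (limma adjusted p = 0.0246). After cyclic loess the changes of both genes were near 0, at 0.00 ± 0.056 for Mcm7 (adjusted p = 0.967) and 0.03 ± 0.051 for Mcm4 (adjusted p = 0.715), and their groups overlapped. The 95% intervals after loess ran from -0.12 to 0.13 for Mcm7 and from -0.09 to 0.14 for Mcm4. Mcm4, Mcm6 and Mcm7 together form the core that unwinds DNA in vitro.

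Mcm2, Mcm5 and Mcm6 passed the test only after cyclic loess and quantile normalization, among the scalings run. As deposited, Mcm2 read 8.62, 8.70 and 8.73 in clock-positive cells, against 8.87, 8.71 and 8.65 in clock-negative cells, and the groups overlapped (change -0.06 ± 0.073 SE, limma adjusted p = 0.498). After cyclic loess it read 8.50, 8.61 and 8.63 in clock-positive cells, against 8.92, 8.88 and 8.77 in clock-negative cells. The groups then did not overlap, and the change was -0.28 ± 0.061 (adjusted p = 0.0074).

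Mcm5 read 9.18, 9.17 and 9.10 in clock-positive cells, against 9.25, 9.11 and 9.14 in clock-negative cells, as deposited. Its change was -0.02 ± 0.065 (SE; limma adjusted p = 0.77). After cyclic loess it read 9.05, 9.08 and 8.99 in clock-positive cells, against 9.30, 9.30 and 9.26 in clock-negative cells. These groups did not overlap, and the change was -0.25 ± 0.051 (adjusted p = 0.00491). Mcm2 and Mcm5 border the gate of the ring through which DNA enters.

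Mcm6 varied least among the clock-positive arrays, with 8.82, 8.84 and 8.82, against 8.88, 8.74 and 8.82 in clock-negative cells as deposited (change 0.01 ± 0.063 SE, limma adjusted p = 0.873). After cyclic loess it read 8.70, 8.74 and 8.71 in clock-positive cells, against 8.93, 8.92 and 8.94 in clock-negative cells. The groups then did not overlap, and the change was -0.21 ± 0.047 (adjusted p = 0.00784). Mcm3, the partner of Mcm5 in the ring, had a change of 0.08 ± 0.071 as deposited (adjusted p = 0.338) and of -0.12 ± 0.057 after loess (adjusted p = 0.135). Its 3 clock-positive arrays lay below the 3 clock-negative arrays after loess, as those of 5 members did, beside 21.7% of all genes below and 32.3% above, but the test was not passed.

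**Figure D1:**
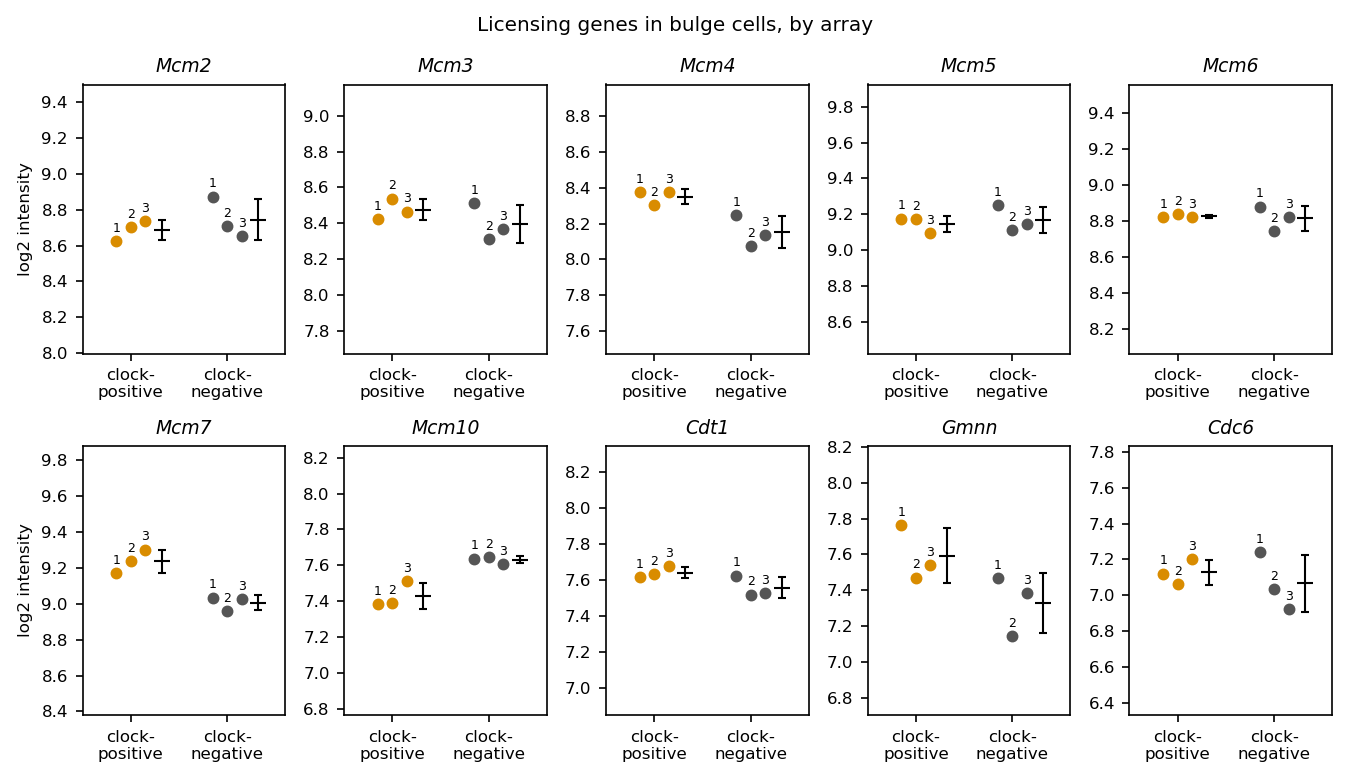
Log2 intensity of each licensing gene in the 3 clock-positive and the 3 clock-negative bulge arrays, as deposited; points are arrays numbered by replicate, bars the mean and SD. The clock-positive points of Mcm4, Mcm7 and Gmnn lie above the clock-negative points, those of Mcm10 lie below them, and the groups overlap for the other 6 genes.

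Mcm10, which helps convert the loaded ring into a moving helicase, read 7.39, 7.39 and 7.51 in clock-positive cells, against 7.64, 7.65 and 7.61 in clock-negative cells. All clock-positive arrays were below all clock-negative arrays under both scalings, which as deposited held for 19.1% of all genes. The change was -0.20 ± 0.063 (SE) as deposited, or 1.15-fold lower (limma adjusted p = 0.0179), and -0.24 ± 0.053 after cyclic loess (adjusted p = 0.00791). Under median centring, which moves all genes of an array together and shifted the median of all genes to 0.29, Mcm10 was at -0.06 and not called, so it was called lower under 3 of the 4 scalings.

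The loading factors did not pass the test. Cdt1 read 7.62, 7.63 and 7.68 in clock-positive cells, against 7.62, 7.52 and 7.53 in clock-negative cells, a change of 0.09 ± 0.062 (SE; limma adjusted p = 0.244). Cdc6, the ATPase that helps load the ring, read 7.12, 7.06 and 7.20 in clock-positive cells, against 7.24, 7.03 and 6.92 in clock-negative cells, a change of 0.06 ± 0.085 (adjusted p = 0.53). The intervals of both crossed 0, from -0.05 to 0.22 for Cdt1 and from -0.12 to 0.25 for Cdc6. Gmnn, the inhibitor of Cdt1, read 7.76, 7.47 and 7.54 in clock-positive cells, against 7.47, 7.14 and 7.38 in clock-negative cells. The groups were just apart, and the change was 0.26 ± 0.099 (adjusted p = 0.0389); after cyclic loess it was 0.24 ± 0.105 with an adjusted p of 0.094.

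Without clock-positive replicate 3 the call of Mcm7 was lost (change 0.20, limma adjusted p = 0.0516). Mcm4 was lost without clock-positive replicate 1 (adjusted p = 0.0797) or 3 (0.0816) and without clock-negative replicate 2 (0.0654) or 3 (0.073). Mcm10 was lost without clock-positive replicate 1 (0.0745) or 2 (0.0707). Gmnn was lost with a smaller change without clock-positive replicate 1 (change 0.18, adjusted p = 0.157) or clock-negative replicate 2 (0.17, 0.134), and with a change of 0.29 without replicate 3 of the clock-positive (0.0602) or the clock-negative group (0.0665). Nothing in the labels says that the replicates were sorted on separate days, so these p-values measure the spread between these pools of mice, which may be technical.

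Loess moved the members' changes unequally. Those of the 6 ring subunits moved by -0.17 to -0.23 between the scalings, those of Mcm10, Cdt1 and Gmnn by -0.02 to -0.05, and that of Cdc6 by 0.07. The ring subunits were also the brighter members. Their mean log2 values over the bulge arrays were 8.25 to 9.16, against 7.10 to 7.60 for Mcm10, Cdt1, Gmnn and Cdc6. Cyclic loess moves each value by an amount set by its intensity, so the split is not shown to be a trait of the ring. Loess turned the sign of Mcm3 and Mcm6 and of no other member. The clock-negative arrays had the higher medians (6.82 to 6.84 in clock-positive and 6.94 to 7.01 in clock-negative arrays) and the narrower spread of values over probe sets (SD 2.00 to 2.02 in clock-positive and 1.88 to 1.91 in clock-negative arrays).

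**Figure D2:**
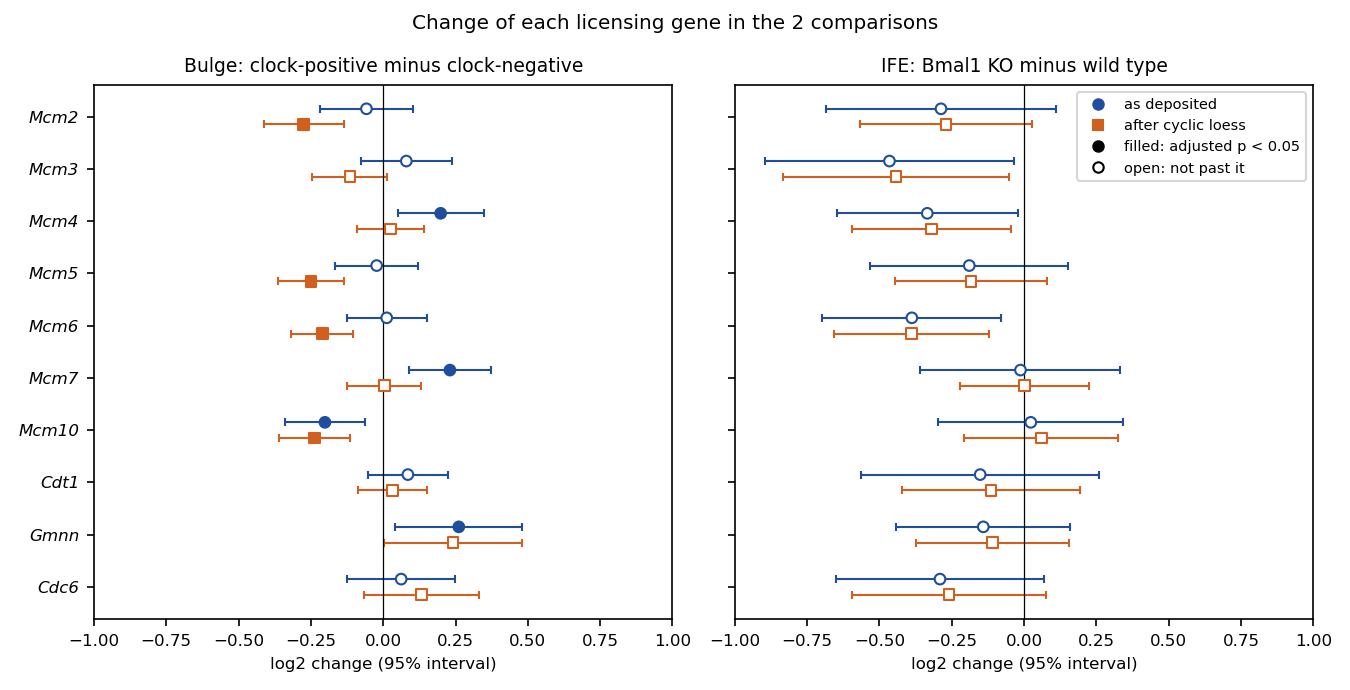
Log2 change of each licensing gene with its 95% interval, clock-positive minus clock-negative bulge cells on the left and Bmal1 KO minus wild-type IFE cells on the right; circles are values as deposited and squares values after cyclic loess, filled where the adjusted p is under 0.05. In the bulge the squares of the 6 ring subunits lie to the left of their circles, while in the IFE the 2 scalings nearly coincide and no symbol is filled.

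The pathway around the members was described through lists of genes, whose counts are to be read against the 45.2% of all genes higher and 18.3% lower as deposited and the 25.3% higher and 15.8% lower after loess. A count near these shares is not a result about its list, and after loess the counts of higher genes lay near them for every list but the mitotic one. All 5 tested subunits of the origin recognition complex, on which the ring is loaded, were higher in clock-positive cells as deposited, among them Orc5 (0.29 ± 0.073 SE), Orc3 (0.32 ± 0.092) and Orc6 (0.28 ± 0.082), with a list median of 0.30. After cyclic loess 1 of the 5, Orc5 (0.44 ± 0.074), was higher, with a list median of 0.31. Of 13 genes of origin firing, 5 were higher as deposited and 3 after loess, none was lower, and the list median was -0.03 as deposited. Mtbp, a partner of treslin at origins, was 0.43 ± 0.062 higher and Dbf4, which activates the kinase Cdc7, was 0.38 ± 0.097 higher.

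Of 10 regulators of licensing proteins, 6 were higher as deposited and 2 after loess. They included Ccna2, the cyclin of S phase and G2 (0.61 ± 0.061), and Cul4b, a scaffold of the ubiquitin ligase that destroys Cdt1 in S phase (0.65 ± 0.099). Of 27 replication fork genes, 15 were higher and 0 lower as deposited, and 7 were higher and 3 lower after loess. Pole2, a subunit of polymerase epsilon, was 0.78 ± 0.088 higher and Rfc4, a subunit of the clamp loader, was 0.56 ± 0.072 higher as deposited. Of 4 tested relatives of MCM and geminin, Mcmbp, which binds MCM subunits, was higher as deposited (0.26 ± 0.073). Mcidas, a geminin relative of multiciliated cells, was lower (-0.34 ± 0.095). After loess Mcmbp was not called, Mcidas was lower (-0.40 ± 0.094) and Mcm9 was the 1 higher (0.20 ± 0.062). Of 5 genes of nucleotide supply, 3 were higher and 1 lower as deposited, with Rrm2, a ribonucleotide reductase subunit, at 0.46 ± 0.087 and Tk1, thymidine kinase, at -0.19 ± 0.064. After loess 1 was higher, Rrm2 (0.26 ± 0.070), and 1 lower, Tk1 (-0.37 ± 0.060).

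Of 21 E2F and G1/S genes, 9 were higher and 2 lower as deposited, and 5 were higher and 3 lower after loess. Ccnd3, a G1 cyclin, was 0.75 ± 0.068 higher as deposited and 0.53 ± 0.052 higher after loess. Ccnd2, of the same list, was lower after loess (-0.39 ± 0.054). Of the mitotic list, all 21 tested genes were higher as deposited and 17 after loess. Its median was 0.43 as deposited and 0.30 after loess, and that of the 6 ring subunits was 0.05 as deposited and -0.16 after loess. Kif11, a spindle motor, was 0.70 ± 0.079 higher and Aurkb, a mitotic kinase, 0.52 ± 0.066 higher as deposited. No test of the difference between the lists was made.

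By array, the mean of the 6 subunits, each centred over the 6 bulge arrays, was 0.01, 0.05 and 0.05 in clock-positive cells and 0.05, -0.10 and -0.06 in clock-negative cells as deposited. The mean of the 21 mitotic genes was 0.23, 0.20 and 0.23 in clock-positive cells and -0.12, -0.33 and -0.22 in clock-negative cells. For the subunits, clock-negative replicate 1 reached as high as the clock-positive arrays, while for the mitotic genes the groups did not overlap. After cyclic loess the subunit means were -0.10, -0.05 and -0.06 in clock-positive cells and 0.09, 0.07 and 0.05 in clock-negative cells, so that the groups were apart in the opposite order to the mitotic genes.

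**Figure D3:**
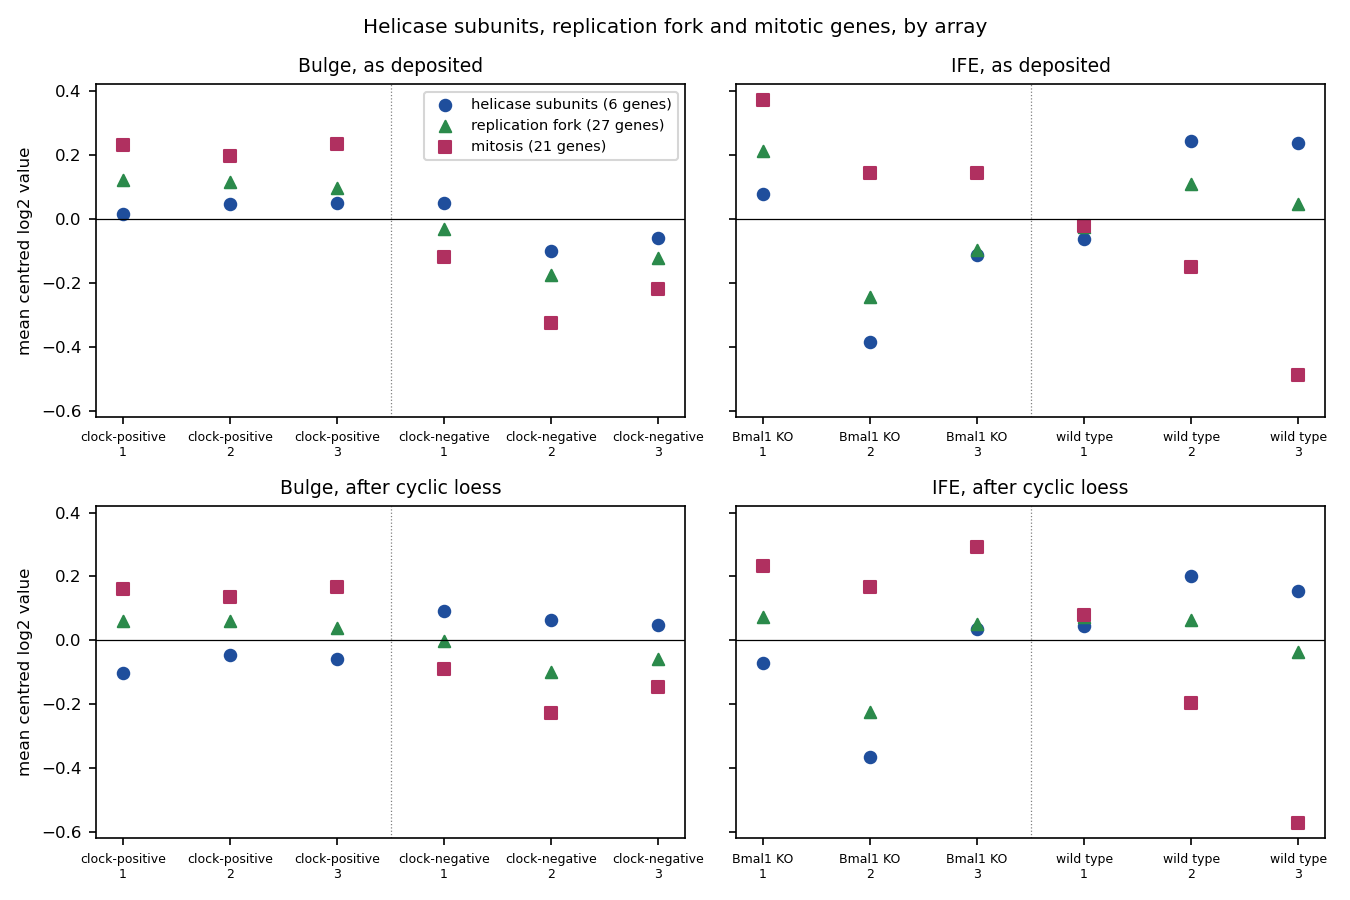
Mean centred log2 value of 6 helicase subunits, 27 replication fork genes and 21 mitotic genes in each array, each gene centred over the 6 arrays of its set, as deposited (top) and after cyclic loess (bottom). In the bulge the mitotic means are above 0 in all 3 clock-positive arrays under both scalings, while the subunit means are below 0 in them after loess; in the IFE the subunit mean is lowest in Bmal1 KO replicate 2.

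Markers of other cells moved with the bulge groups. The 5 measured T cell markers were all lower in clock-positive cells, with a summed log2 level of 10.18 to 10.25 in clock-positive and 11.24 to 11.44 in clock-negative arrays. All 5 tested Langerhans and myeloid markers were lower too, with sums over 6 markers of 10.75 to 10.82 in clock-positive and 11.33 to 11.49 in clock-negative arrays. The 4 endothelial markers were all higher, with sums of 10.63 to 10.66 in clock-positive and 10.00 to 10.21 in clock-negative arrays, and 8 of 9 bulge markers were higher. Of 7 markers of hair shaft and inner root sheath 6 were lower (median -0.67), of 5 of differentiated epidermis 3 were lower (-0.33), of 7 of hair germ and matrix 4 were higher and 2 lower (0.62), and of 6 of basal IFE 2 were higher (0.05). Of 4 tested melanocyte markers 1 was higher and 3 lower, and of 3 tested fibroblast markers 1 was higher and 2 lower. These counts are as deposited, beside 45.2% of all genes higher and 18.3% lower. A count near these shares is not a result about its list. After cyclic loess the counts higher and lower were 8 and 1 for bulge and 2 and 2 for basal IFE. They were 4 and 1 for hair germ and matrix and 1 and 2 for melanocyte markers. Fibroblast markers had 0 and 1, and myeloid markers 0 and 4. The counts of the other lists did not change. The part of these markers in the results on the licensing genes was not tested.

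The IFE comparison asked whether loss of Bmal1 changed the same genes in basal epidermis. No member passed the test: 0 of 10 were called in Bmal1 KO against wild-type cells, beside 0.193% of all 13956 genes (27 genes, limma). Without adjustment, 3 of the 10 had p under 0.05, beside 7.96% of all genes. The log2 change was negative for 9 of the 10, with a median of -0.24 for the members and -0.01 for all genes. After cyclic loess 0 of 10 were called, beside 0.609% of all genes, 8 of 10 were negative and the median was -0.22.

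Mcm6 read 10.82, 10.46 and 10.75 in Bmal1 KO cells, against 10.90, 11.19 and 11.10 in wild-type cells. All 3 Bmal1 KO arrays lay below all 3 wild-type arrays. The change was -0.39 ± 0.134 (SE; 95% interval -0.70 to -0.08), with an unadjusted p of 0.0201 and a limma adjusted p of 0.45.

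Mcm4 read 10.12, 9.63 and 9.89 in Bmal1 KO cells, against 10.19, 10.24 and 10.22 in wild-type cells. Its groups did not overlap either, and the change was -0.33 ± 0.136 (SE; limma adjusted p = 0.565). Mcm3 read 9.70, 9.02 and 9.55 in Bmal1 KO cells, against 9.68, 10.03 and 9.97 in wild-type cells, and its change of -0.47 ± 0.187 was the widest among the members (95% interval -0.90 to -0.03, adjusted p = 0.559). Its groups overlapped as deposited through wild-type replicate 1 and not after cyclic loess. Groups that lay wholly below were thus 2 members as deposited and 3 after loess, beside 8.56% and 11.8% of all genes.

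Mcm2 read 10.06, 9.54 and 9.78 in Bmal1 KO cells, against 9.79, 10.22 and 10.23 in wild-type cells, with a change of -0.29 ± 0.173 (SE; limma adjusted p = 0.811). Mcm5 had a change of -0.19 ± 0.149 (adjusted p = 0.897). Mcm7, in contrast, read 10.32, 9.98 and 10.03 in Bmal1 KO cells, against 9.86, 10.20 and 10.30 in wild-type cells, and its change was -0.01 ± 0.15 (95% interval -0.36 to 0.33). The ring subunits therefore spanned -0.47 to -0.01 within a single complex, with overlapping intervals.

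Of the other members, Cdc6 had a change of -0.29 ± 0.156 (SE; limma adjusted p = 0.751), Cdt1 of -0.15 ± 0.179 (0.942), Gmnn of -0.14 ± 0.131 (0.922) and Mcm10 of 0.02 ± 0.139 (0.995). Gmnn was tight in the wild-type arrays (9.19, 9.14 and 9.14) and ranged from 8.80 to 9.26 in the Bmal1 KO arrays. The median SD of the members within a group was 0.25 in Bmal1 KO and 0.17 in wild-type cells, against 0.06 in clock-positive and 0.08 in clock-negative bulge cells.

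**Figure D4:**
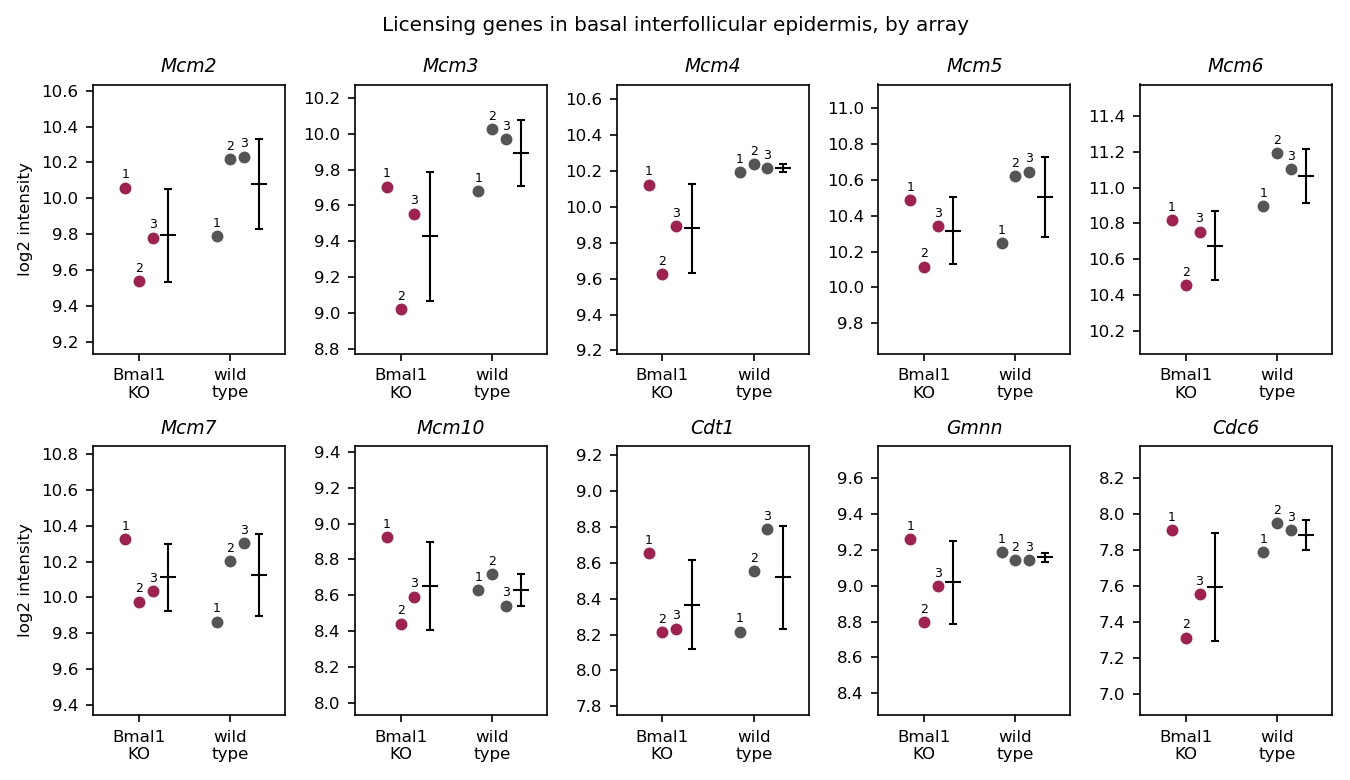
Log2 intensity of each licensing gene in the 3 Bmal1 KO and the 3 wild-type IFE arrays, as deposited; points are arrays numbered by replicate, bars the mean and SD. Bmal1 KO replicate 2 is the lowest of the 6 points for 9 of the 10 genes, Mcm7 being the exception, and the groups do not overlap for Mcm4 and Mcm6.

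Leaving out single arrays moved the IFE changes. Bmal1 KO replicate 2 was the lowest of the 6 arrays for 9 of the 10 members, Mcm7 being the exception, where wild-type replicate 1 was lowest. Without Bmal1 KO replicate 2 the members' median change was -0.12 and 8 were negative; without Bmal1 KO replicate 1 it was -0.36 and all 10 were negative. By array, the subunit means were 0.08, -0.38 and -0.11 in Bmal1 KO cells and -0.06, 0.24 and 0.24 in wild-type cells.

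Myeloid markers followed some of the same arrays. The summed log2 level of 6 Langerhans and myeloid markers was 9.92, 10.01 and 9.60 in Bmal1 KO cells, against 9.98, 11.61 and 12.21 in wild-type cells, so that wild-type replicates 2 and 3, where the subunits were highest, were also highest for these markers. None of the 5 tested markers of the list was called. Of 4 tested T cell markers 1, Thy1, was called higher, at 12.22 ± 0.130 in Bmal1 KO and 11.03 ± 0.165 in wild-type cells (SD, n = 3 each), and after loess 1 other was called lower. The median change of the 4 tested T cell markers was -1.28. Cd3e averaged 7.82 ± 0.151 in Bmal1 KO and 9.15 ± 0.668 in wild-type cells. Cd3g averaged 7.05 ± 0.081 in Bmal1 KO and 9.70 ± 1.014 in wild-type cells, and Cd7 8.26 ± 0.154 in Bmal1 KO and 9.48 ± 0.774 in wild-type cells. Cd3d, left out of the test by the filter on dim genes, averaged 6.02 ± 0.030 in Bmal1 KO and 7.47 ± 1.133 in wild-type cells. The summed T cell level, 12.35 to 12.54 in Bmal1 KO and 11.58 to 12.44 in wild-type arrays, therefore ran against Cd3e, Cd3g, Cd7 and Cd3d. Their part in the values of the licensing genes was not tested.

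None of the 106 genes tested in the 8 lists around the pathway was called in the IFE comparison by limma, as deposited or after loess. Of all genes, 0.193% were called as deposited and 0.609% after loess. Without adjustment, 24 of the 106 had p under 0.05 as deposited, beside 7.96% of all genes. After loess 28 did, beside 13.4% of all genes. The medians as deposited were -0.11 for the origin recognition complex, -0.22 for origin firing, -0.08 for the fork and 0.43 for the mitotic list. They were -0.09 for MCM and geminin relatives and -0.12 for regulators of licensing proteins. For nucleotide supply the median was 0.11, with Rrm2 at 0.62 ± 0.162 (SE, limma adjusted p = 0.294), and for E2F and G1/S genes 0.02. All 21 mitotic genes had positive changes, among them Aurkb (0.68 ± 0.141 SE, limma adjusted p = 0.164) and Cdk1, the mitotic kinase (0.61 ± 0.117, adjusted p = 0.13), while the 6 subunits had a median of -0.31. Gins1, a subunit of the helicase cofactor GINS, had a change of -0.40 ± 0.141 (adjusted p = 0.456), and Ccna2 had 0.60 ± 0.123 (adjusted p = 0.163). The mitotic means by array were 0.37, 0.14 and 0.14 in Bmal1 KO cells, against -0.02, -0.15 and -0.49 in wild-type cells.

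The difference between the bulge change and the IFE change was tested in 1 fit over all 12 arrays. It was past the threshold for 1 member, Mcm4, at 0.53 ± 0.154 (SE; limma adjusted p = 0.0388), beside 13.1% of 13100 genes called in either direction. The call held without clock-negative, Bmal1 KO or wild-type replicate 1 and was lost without any 1 of the other 9 arrays, with limma adjusted p from 0.0676 to 0.103 and differences from 0.41 (without Bmal1 KO replicate 2) to 0.56. The 2 contrasts also differ in tissue, age and number of mice per sample. Mcm3 (0.55 ± 0.209, adjusted p = 0.0866) and Mcm6 (0.40 ± 0.15, 0.0815) had values of like size that did not pass. After cyclic loess no member passed, and Mcm4 was at 0.35 ± 0.131 (adjusted p = 0.0974), again beside 13.1% of all genes.

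The genes whose profiles lay nearest to the mean centred profile of the 10 members were sought among 13946 other genes in each set, by the root mean square difference over 6 arrays. In the bulge set as deposited these were Mrpl51, Atrnl1, Tex2, Hspa5 and Atad5, with differences of 0.0100 to 0.0157, beside a root mean square of 0.0573 for the members' profile itself. In the IFE set they were Adgrl1, Ppp1r26, Tcf19, Septin11 and Gins2, with differences of 0.0359 to 0.0449, beside 0.194. The members themselves lay 0.0203 (Cdt1) to 0.147 (Gmnn) from this mean in the bulge set. In the IFE set they lay 0.0608 (Cdc6) to 0.157 (Mcm10) from it. Every member was thus farther from the mean than the genes named, so these genes are not shown to follow single members. In the bulge set, 1 of the 5 genes was among the nearest 5 after cyclic loess as well, Mrpl51, and in the IFE set 2 were, Adgrl1 and Septin11.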

How the data were processed

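Per the submitters' processing notes, the deposited values were made with RMA, whose version and settings are not given in the sources used here. The authors deposited log2 intensities per probe set, 1 column for each of the 12 arrays. Per the labels' protocols, a whole transcriptome kit amplified the RNA before labelling. No scanner files were used here, so scale and centring could not be set against scanner values.

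Of 35512 probe sets, 21789 had 1 gene symbol, 1621 had several and 12102 had no listed gene. Each of 19938 symbols was represented by 1 probe set, preferring probe sets measured on all 12 arrays and, among these, the brightest on average. The 30% of genes with the lowest mean in a set were left out. Groups were compared with lmFit and eBayes of limma 3.58.1 (R 4.3.3) within each set, with two-sided p-values adjusted by Benjamini-Hochberg over all genes tested, and the fit was tested on simulated data. Alternatives were cyclic loess, quantile normalization, median centring, other filters, an intensity trend, a fit over 12 arrays, all probe sets, a replicate block and leaving out each array. Precision is limited by having 3 arrays per group. The members, lists, markers and motifs were chosen with earlier results of these data known. All members are named; from each list up to 3 genes with the smallest p per comparison could be named, as could the 5 genes nearest in profile.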

Additional observations from a re-analysis of the deposited data

Results flagged for a closer look

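The change of Mcm4 differed between the 2 comparisons: clock-positive minus clock-negative bulge cells minus the difference of Bmal1 KO and wild-type IFE cells was 0.53 ± 0.154 (SE, limma adjusted p = 0.0388). This was 1 call among 10 members, beside 13.1% of all genes called, and it was lost when most single arrays were left out. In the bulge Mcm4 was 0.20 higher in clock-positive cells as deposited. There 3 of 3 arrays lay above all clock-negative arrays, as for 50.1% of all genes. After cyclic loess the bulge change of Mcm4 was 0.03 and its groups overlapped. In the IFE its change was -0.33 and was not past the threshold. There 3 of 3 Bmal1 KO arrays lay below all wild-type arrays, as for 8.56% of all genes. The difference was 0.35 after cyclic loess (adjusted p = 0.0974) and 0.39 after quantile normalization (adjusted p = 0.0635).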

How the results depend on the processing

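In the bulge, 3 members were higher and 1 lower as deposited. The number higher was 0 after cyclic loess, 0 after quantile normalization, 5 after median centring, 0 with all 12 arrays in 1 fit, 1 after cyclic loess with the replicate block, and 0 to 3 with 1 array left out. The number lower was 4, 4, 0, 0, 4 and 0 to 1 under the same settings. Of all genes, 41.1%, 41.6%, 73.7%, 38%, 42.4% and 51.1% to 70.4% were called in either direction under these settings. In the IFE, 0 members were called under every alternative run. Cdc6 was not tested when 50% of genes were left out. For the difference of the contrasts, 1 member was higher as deposited, 0 after cyclic loess or quantile normalization, 4 after median centring, 0 with the replicate block, 0 after cyclic loess with the block, and 0 to 5 with 1 array left out (5 without Bmal1 KO replicate 1, 3 without wild-type replicate 1). The cause was not tested.

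Changes of sign in the bulge were Mcm3 after cyclic loess, with or without the block (-0.115), and quantile normalization (-0.0865), Mcm6 after loess, with or without the block (-0.21), and quantile normalization (-0.166), and Mcm2 (0.0843) and Mcm5 (0.12) after median centring. With 1 array left out the values ran from -0.0510 to 0.0186 for Mcm5, -0.103 to 0.00593 for Mcm2, -0.0241 to 0.0448 for Mcm6 and -0.0089 to 0.149 for Cdc6. In the IFE they were Mcm7 after loess, with or without the block (0.000514), Mcm7 with 1 array left out (-0.142 to 0.0769) and Mcm10 with 1 array left out (-0.111 to 0.128). In the difference they were Mcm2 (-0.00515) and Mcm5 (-0.0665) after loess, with or without the block, and Mcm5 after quantile normalization (-0.00752).

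Over all genes the bulge comparison called 8866 as deposited, 5739 after cyclic loess, 5809 after quantile normalization and 5301 in the 12-array fit. Higher and lower calls were 6311 and 2555 as deposited, 3531 and 2208 after loess, 4113 and 1696 after quantile normalization, and 8928 and 1355 after median centring. The IFE comparison called 27 genes, and 85 after loess, 49 after quantile normalization, 18 after median centring, 16 with no filter, 47 with 50% of genes left out, 57 with an intensity trend, 407 in the 12-array fit, 3 with the block, 8 after loess with the block, and 7 to 103 with 1 array left out. The difference called 1712 genes, and 3835 after median centring, 2650 with no filter, 928 with 50% left out, 232 with the block, 884 after loess with the block, and 580 to 4893 with 1 array left out.

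The replicate numbers were shared by the groups. Deviations of same-numbered arrays correlated across genes at 0.24, 0.26 and -0.06 in the bulge and -0.44, 0.04 and -0.52 in the IFE. Differently numbered arrays ran from -0.32 to 0.13 in the bulge and from -0.31 to 0.54 in the IFE. In the bulge, replicates 1 and 2 were thus above every differently numbered pair and replicate 3 was not, which does not settle pairing there. The numbers were not taken to pair the samples in the main fits. With the block, the bulge call counts of members stayed at 3 higher and 1 lower, beside 67% of all genes called in either direction. Mcm4 was then at 0.53 in the difference (limma adjusted p = 0.112). After cyclic loess with the block, the 1 member higher was Gmnn (0.24 ± 0.061 SE, limma adjusted p = 0.0158).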
